A study of Mus musculus with 10 samples.

Results

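The 10 genes described here, Angptl4, Fabp4, Fabp5, Lpl, Apoc2, Apoe, Plin2, Cd36, Pparg and Pdk4, handle lipid uptake and storage and are known targets or partners of the peroxisome proliferator-activated receptors (PPARs). They were taken from a fixed list of names among 19938 genes with a probe set of their own on a whole-transcript mouse array, and all 10 were measured. For 9 of them the brightest probe set that lists this gene alone was used. The probe set of Apoc2 also lists the gene model Gm44805, so its signal is shared. The members were chosen with earlier results of these arrays known, and Angptl4, Apoc2 and Fabp5 are among the genes that the study itself picked on these arrays.

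RNA came from the bone marrow (BM) of C57BL6 recipients, which were vitamin D-sufficient and had been lethally irradiated before transplant with hematopoietic stem cells (HSCs) from fetal liver. The VD(−) group received cells of embryos from dams fed a vitamin D-deficient diet since before pregnancy, and the VD(+) group cells of embryos from dams fed a sufficient diet. No gene was deleted in either group. Each group has 5 arrays, 3 of single samples and 2 of pooled RNA. The pools may contain RNA from the same mice as the single samples, which the labels leave unsaid, and p-values therefore refer only to the spread among these arrays. The study's methods describe the donor fetal liver cells as mixed male and female pools. Marrow stroma, adipocytes and endothelium largely stay of host origin after such a transplant. The labels give mice of 8 weeks and both sexes and speak of BM macrophages in the treatment field, whereas the source is BM, and neutrophil markers such as S100a8 and Ngp were measured in the same RNA. The study's text and a legend give different times after transplant for these arrays, so the time of collection is not settled here. Values are log2 signals that the authors normalized by RMA, which sets the distributions of the arrays alike.

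PPARs are nuclear receptors that bind fatty acids and, paired with a retinoid X receptor, switch on genes at a direct repeat of the hexamer AGGTCA spaced by a single base. Their targets bring fatty acids into the cell, carry them inside it, pack them into droplets and shift fuel use away from glucose. In marrow these genes are known from adipocytes, stromal cells, capillary endothelium and macrophages.

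The promoter of Apoc2 is shown because it alone among the member windows examined matched a repeat, and the others because they hold the single hexamer. The RefSeq table of GRCm38.p6 held 10 promoter windows for 6 of the members (Apoc2, Apoe, Plin2, Cd36, Pparg and Pdk4), each from 250 bases before to 50 after a start site. They were searched on both strands for AGGTCANAGGTCA, for the looser AGGNCANAGGNCA, which every strict match also meets, and for the hexamer AGGTCA, which lies inside both kinds of match in full or in part. Each stretch runs 5′ to 3′ along the strand of its gene, and capitals mark the match.
Apoc2, chr7:19678042-19678071, minus strand: ttctcttgAGGCCAGAGGTCAaccttccgt
Plin2, chr4:86670260-86670289, minus strand: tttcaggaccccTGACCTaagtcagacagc
Cd36, chr5:17836107-17836136, minus strand: ctctgcactttaTGACCTgagattttcagg
Pparg, chr6:115361104-115361133, plus strand: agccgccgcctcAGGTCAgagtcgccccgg
The strict repeat was in 0 of the 10 windows and in 0.0396% of all 32851 windows. The looser repeat was in 1, at 122 bases before the start site of Apoc2, and in 0.381% of all windows. The hexamer was in 5 windows of 4 genes and in 16.3% of all windows, and in Plin2 and Cd36 it lies on the opposite strand. A match of letters is a description of the window and not a binding site.

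Over the 10 members, Angptl4, Apoc2 and Fabp5 were higher in VD(−) HSC recipient BM at a nominal p under 0.05, each by about 1.5-fold, and 0 were lower. At that threshold 3.85% of all probe sets were higher and 3.23% lower, and of the 9323 genes at least as bright as the dimmest member 6.02% were higher and 2.78% lower. After adjustment over all 35556 probe sets by the Benjamini-Hochberg method, Angptl4 alone passed an adjusted p under 0.05 from limma, where 0.045% of all probe sets and 0.118% of the bright genes were higher. The median difference in log2 signal, VD(−) less VD(+), was 0.32 over the members, against −0.0028 over all probe sets. The median of the members was 0.20 without VD(−) pool 1, 0.46 without VD(−) replicate 2 and 0.13 with a covariate for Y-linked signal, which 3 VD(−) arrays carried. Of the 10 members 9 lay above 0, where 49.1% of all probe sets and 57.3% of the bright genes did. The list was chosen with results of these arrays known, and the study had picked Angptl4, Apoc2 and Fabp5 on them. These counts and shares are therefore a description and give no test of the members. The p-values of single members below come from the same arrays and give no independent support either.

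**Figure D1:**
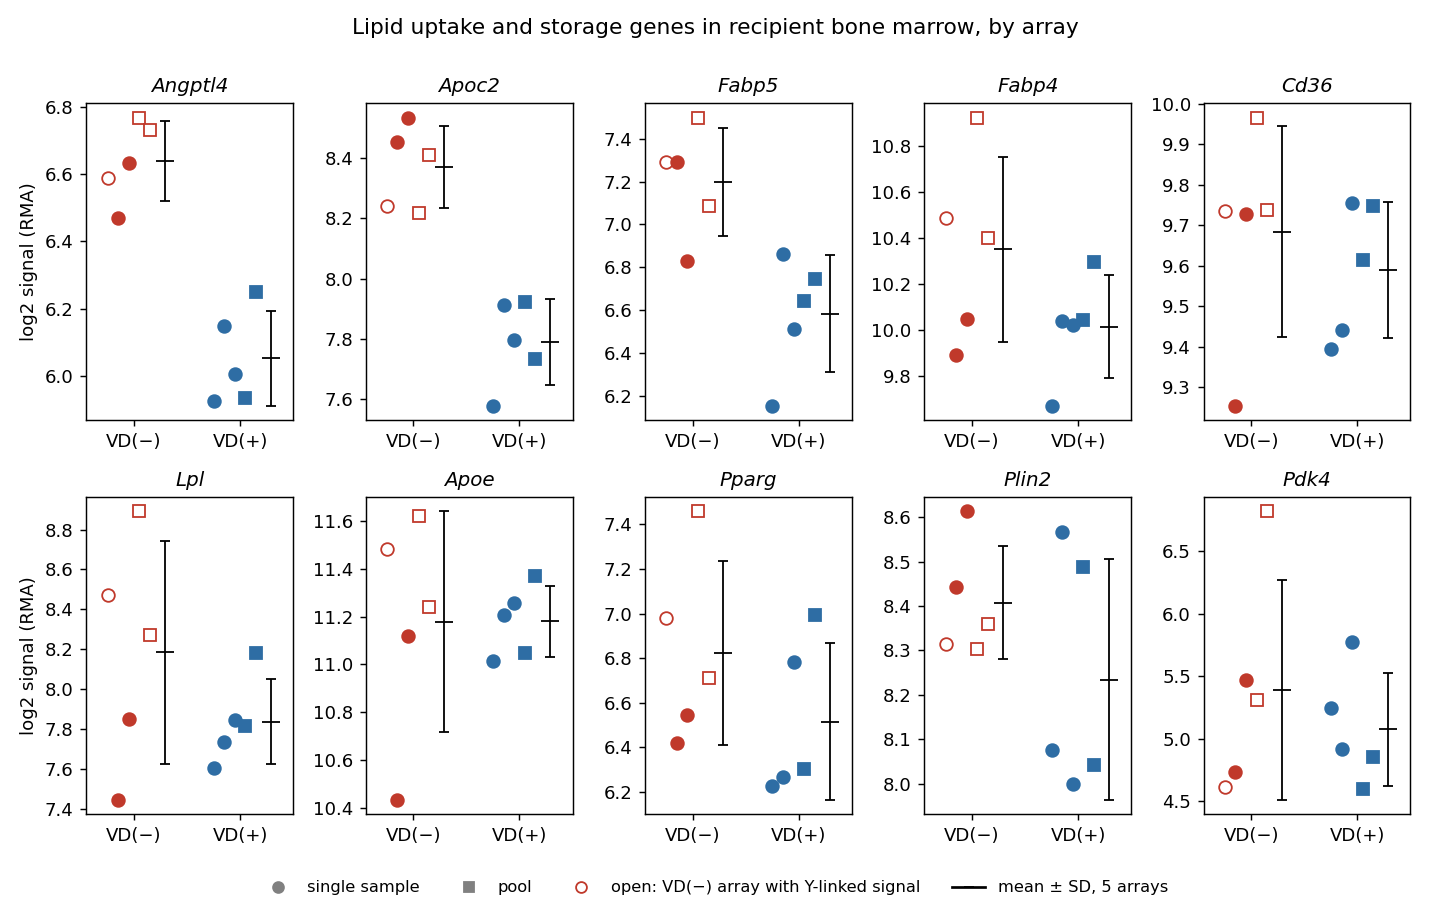
Log2 signal (vertical axes, a separate scale for each gene) of the 10 genes in VD(−) and VD(+) HSC recipient BM. Each point is an array, circles are single samples, squares are pools, open symbols are the 3 VD(−) arrays with Y-linked signal, and black bars are the mean ± SD of 5 arrays. The groups separate for Angptl4 (VD(−) at 6.47 or more, VD(+) at 6.25 or less) and Apoc2. The VD(−) arrays of Lpl, Fabp4 and Pparg spread across the VD(+) range and above it, and those of Lpl also below it (lowest 7.44, against 7.61 in VD(+)).

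Angptl4 encodes a secreted inhibitor of lipoprotein lipase and is a classical PPAR target of fasting tissue. Its log2 signal in VD(−) was 6.59, 6.47 and 6.63 in replicates 1 to 3 and 6.77 and 6.73 in the pools. In VD(+) it was 5.93, 6.15 and 6.00 in replicates 1 to 3 and 5.93 and 6.25 in the pools. All 5 VD(−) arrays lay above all 5 VD(+) arrays, with 0.22 between the nearest pair, a separation that 0.911% of all probe sets and 1.87% of the bright genes also showed, whatever its width. The mean was 6.64 ± 0.12 in the 5 VD(−) arrays, against 6.05 ± 0.14 in the 5 VD(+) arrays (SD), a log2 difference of 0.59 with an SE of 0.09 (limma, adjusted p = 0.0376). The exact permutation test of 5 arrays against 5, two-sided, gave p = 0.00794. That is the smallest it can give and restates that the groups did not overlap. The adjusted p lay between 0.0383 and 0.140 when 1 array was left out and stayed under 0.05 only without VD(−) replicate 2, while the log2 difference stayed between 0.55 and 0.63. It was 0.54 in the single samples alone and 0.66 in the pools alone.

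Apoc2 encodes the cofactor that activates lipoprotein lipase on triglyceride-rich particles. The signal of its probe set, shared with Gm44805, was 8.24, 8.45 and 8.53 in VD(−) replicates 1 to 3 and 8.22 and 8.41 in the VD(−) pools. The VD(+) values were 7.58, 7.91 and 7.80 in replicates 1 to 3 and 7.92 and 7.73 in the pools. Again the groups did not overlap, with 0.30 between the nearest arrays. The mean was 8.37 ± 0.14 in the 5 VD(−) arrays, against 7.79 ± 0.14 in the 5 VD(+) arrays (SD). The exact permutation test gave p = 0.00794, and the log2 difference of 0.58 (SE 0.09) had an adjusted p of 0.0516 from limma. That adjusted p was under 0.05 in 4 of 22 alternatives, at 0.0219 among the brighter probe sets alone, 0.0480 after cyclic loess, 0.0422 with array weights and 0.0346 with a trended and robust spread. It was over 0.05 in the others, among them 0.0859 to 0.188 when 1 array was left out, 0.118 with the methods' calculation and 0.269 with the replicate block.

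Apoc2 lies next to Apoe on chromosome 7, with Apoc4 and Apoc1 between them. These neighbours, which encode other apolipoproteins, did not pass a nominal p under 0.05. Apoc1 had a difference of 0.24 (SE 0.28) and Apoc4 one of −0.20 (SE 0.13). Of 8 measured genes around Apoe and Apoc2, 0 were higher and 1 lower by that measure, against 3.85% and 3.23% of all probe sets. The median of these 8 genes was −0.024. The gene that was lower was Bcam, an adhesion molecule that binds laminin, with −0.28 (SE 0.11, adjusted p = 0.635 from limma).

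Fabp5 encodes a cytosolic carrier of fatty acids found in macrophages and epithelia. Its signal was 7.29, 7.29 and 6.83 in VD(−) replicates 1 to 3 and 7.50 and 7.08 in the VD(−) pools, against 6.15, 6.86 and 6.51 in VD(+) replicates 1 to 3 and 6.64 and 6.74 in the VD(+) pools. The groups overlapped by 0.034, since VD(−) replicate 3 lay just below VD(+) replicate 2. The log2 difference was 0.61 with an SE of 0.15 (limma, adjusted p = 0.328), and the exact permutation test gave p = 0.0159. The other probe set of Fabp5 gave 0.62 (SE 0.16, adjusted p = 0.350 from limma). Its signal ran from 6.73 to 7.42 in VD(−) and from 6.08 to 6.79 in VD(+), with the arrays in nearly the same order. It reads the same RNA and is no independent measurement.

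**Figure D2:**
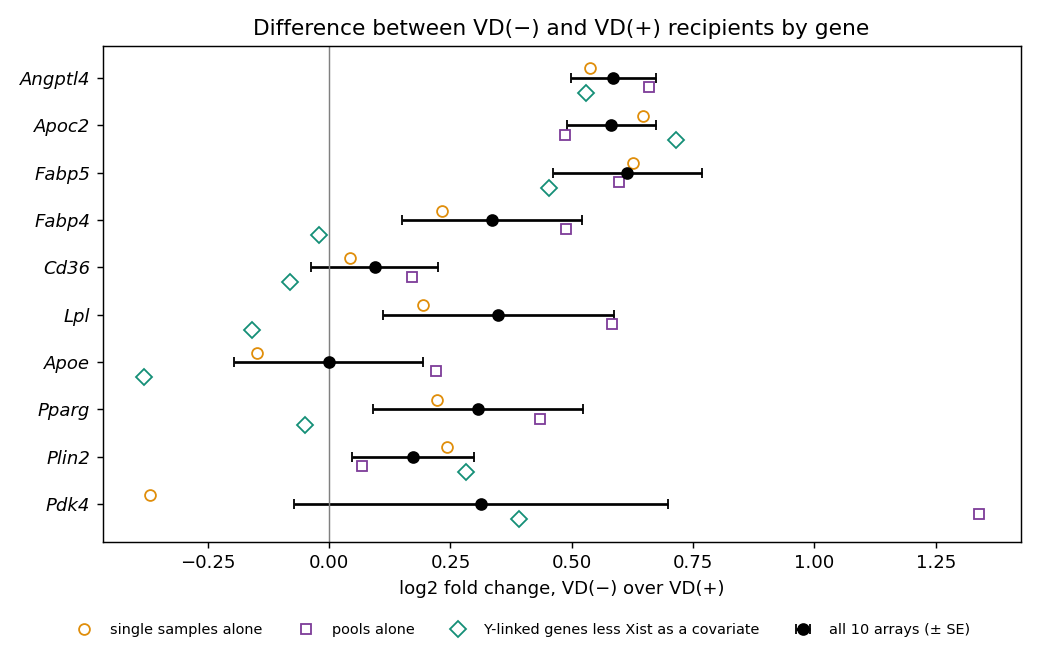
Log2 fold change on the horizontal axis, which is the mean log2 signal of VD(−) less that of VD(+), for each of the 10 genes. Black points are limma estimates over all 10 arrays with ± SE, and open symbols are the same difference in the single samples alone, in the pools alone and after adjustment for the Y-linked mean less Xist. Angptl4, Apoc2 and Fabp5 lie between 0.45 and 0.71 in each of these, and Pdk4 runs from −0.37 in the single samples to 1.34 in the pools.

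The genes that release, take up and bind fatty acids, other than Fabp5, overlapped widely between the groups. Lpl encodes lipoprotein lipase, the enzyme that frees fatty acids from circulating particles. In VD(−) its signal was 8.47, 7.44 and 7.85 in replicates 1 to 3 and 8.89 and 8.27 in the pools. In VD(+) it was 7.61, 7.74 and 7.84 in replicates 1 to 3 and 7.81 and 8.18 in the pools. VD(−) thus held both the 3 highest arrays and the lowest one. The log2 difference was 0.35 with an SE of 0.24 (limma, adjusted p = 0.805).

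Fabp4, which encodes the fatty acid carrier of adipocytes, capillary endothelium and macrophages, had 10.49, 9.90 and 10.05 in VD(−) replicates 1 to 3 and 10.92 and 10.40 in the VD(−) pools. In VD(+) it had 9.67, 10.04 and 10.02 in replicates 1 to 3 and 10.05 and 10.30 in the pools. Its 3 highest arrays were the same VD(−) arrays as for Lpl, namely replicate 1 and both pools. The log2 difference was 0.34 with an SE of 0.19 (limma, adjusted p = 0.754). Without VD(−) replicate 2 the difference was 0.45 for Fabp4 (adjusted p = 0.685) and 0.53 for Lpl (adjusted p = 0.669), and 5 members instead of 3 were higher at a nominal p under 0.05. Without VD(−) pool 1 it was 0.19 for Fabp4 and 0.17 for Lpl.

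Pparg, the receptor that drives fat cell formation and lipid storage, had 6.98, 6.42 and 6.54 in VD(−) replicates 1 to 3 and 7.46 and 6.71 in the VD(−) pools. In VD(+) it had 6.23, 6.27 and 6.78 in replicates 1 to 3 and 6.30 and 6.99 in the pools. The groups overlapped, and the log2 difference was 0.31 with an SE of 0.22 (limma, adjusted p = 0.806), or 0.15 without VD(−) pool 1. Cd36, a scavenger receptor and transporter of long-chain fatty acids, ranged from 9.25 to 9.97 in VD(−) and from 9.39 to 9.76 in VD(+), with a log2 difference of 0.094 (95% interval −0.19 to 0.38 by limma, adjusted p = 0.913). It lay between 0.023 without VD(−) pool 1 and 0.20 without VD(−) replicate 2.

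Apoe encodes the apolipoprotein through which remnant particles are cleared and which macrophages secrete in quantity. Its means were 11.18 ± 0.46 in the 5 VD(−) arrays, against 11.18 ± 0.15 in the 5 VD(+) arrays (SD), a log2 difference of −0.00086 with a 95% interval of −0.43 to 0.43 (adjusted p = 0.999 from limma). The VD(−) arrays spread from 10.43 in replicate 2 to 11.62 in pool 1, around a VD(+) range of 11.01 to 11.37.

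Of the storage and fuel genes, Plin2, which encodes a coat protein of lipid droplets, ranged from 8.30 to 8.61 in VD(−) and from 8.00 to 8.57 in VD(+). The log2 difference was 0.17 (95% interval −0.11 to 0.45 by limma, adjusted p = 0.812), and 0.11 without VD(+) replicate 3. Pdk4 encodes a kinase that shuts off pyruvate dehydrogenase and so spares glucose. It had 4.62, 4.73 and 5.47 in VD(−) replicates 1 to 3 and 5.31 and 6.82 in the VD(−) pools, against 5.25, 4.92 and 5.77 in VD(+) replicates 1 to 3 and 4.60 and 4.85 in the VD(+) pools. The value of VD(−) pool 2 stood above all others, and the log2 difference of 0.31 with an SE of 0.39 (limma, adjusted p = 0.897) was −0.044 without it.

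The members fell into sets that moved together from array to array inside the groups. After the group mean was taken from each value, the deviations of Lpl and Fabp4 had a Pearson r of 0.96 over the 10 arrays, those of Lpl and Apoe 0.93, of Lpl and Pparg 0.88 and of Lpl and Cd36 0.86. The 5 genes had r of 0.78 or more with each other. Apoc2 ran the other way, with r between −0.52 (Pparg) and −0.23 (Cd36) to these genes, and had r of 0.76 with Plin2. Angptl4 was nearer to the 5 genes, with r between 0.62 (Cd36) and 0.73 (Fabp4), and had −0.09 to Apoc2 and −0.12 to Plin2. These are descriptions over 10 arrays that share a normalization and may share mice, and no test was made of them.

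**Figure D3:**
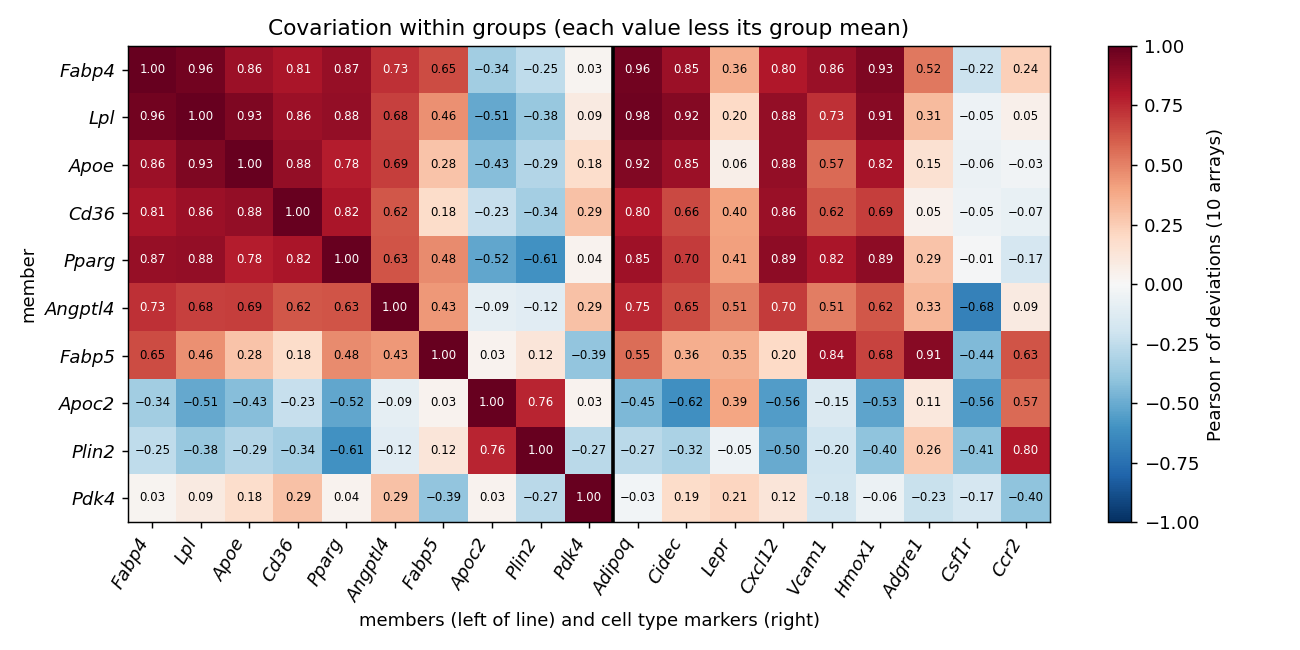
Pearson r, over 10 arrays, between the deviations of each member from its group mean (rows) and those of the other members and of cell type markers (columns, markers right of the line). Red is positive and blue negative. Fabp4, Lpl, Apoe, Cd36 and Pparg form a red block that extends to Adipoq (0.80 to 0.98) and Cxcl12 (0.80 to 0.89). It extends less evenly to Hmox1 (0.69 to 0.93) and Vcam1 (0.57 to 0.86), and not to Csf1r (−0.22 to −0.0079). Apoc2 and Plin2 are blue against that block.

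The gene whose deviations were most like those of Lpl, among 10076 named genes with a mean above the median of all probe sets, was Adipoq (r = 0.98), which encodes the adipocyte and marrow stromal hormone adiponectin. It was followed by the growth hormone receptor gene Ghr (r = 0.96) and by Fabp4 (r = 0.96). The nearest to Apoe was Scd1 (r = 0.97), the desaturase that makes oleate, before Cpsf6 (0.96) and Yeats4 (0.96). The nearest to Angptl4 were Fam133b (r = 0.95), Csrp1 (0.92) and Ncaph (0.91), and those to Fabp5 were Rpl36a, Malsu1 and Serinc1 (r = 0.99 each).

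Markers of other cell types moved with these genes, and their part in the results was not tested. The deviations of Lpl had r of 0.88 with stromal Cxcl12, 0.91 with macrophage Hmox1 and 0.87 with endothelial Cdh5. They had r of 0.31 with Adgre1, 0.20 with Lepr and −0.05 with Csf1r. Other members had other nearest markers. The deviations of Fabp5 had r of 0.91 with Adgre1 and 0.84 with Vcam1, but 0.20 with Cxcl12 and −0.44 with Csf1r. Those of Plin2 had r of 0.80 with the monocyte marker Ccr2 and 0.26 with Adgre1. In bulk RNA more cells of a type and more RNA per cell cannot be told apart. Adipoq had 9.04, 7.77 and 8.26 in VD(−) replicates 1 to 3 and 9.43 and 8.64 in the VD(−) pools, against 7.72, 8.16 and 7.96 in VD(+) replicates 1 to 3 and 8.02 and 8.63 in the VD(+) pools. VD(−) replicate 1 and both VD(−) pools were its 3 highest arrays too. Cidec, which fuses lipid droplets in fat cells, had 6.22, 4.30 and 4.92 in VD(−) replicates 1 to 3 and 7.30 and 6.28 in the VD(−) pools, against 4.40 to 5.20 in VD(+), so that VD(−) held its 3 highest arrays and its lowest. For the marker counts that follow, 49.1% of all probe sets and 57.3% of the bright genes were above 0. At a nominal p under 0.05, 3.85% of all probe sets and 6.02% of the bright genes were higher, and 3.23% and 2.78% lower. The counts were not tested against these shares. Of 7 measured adipocyte markers 6 were above 0 and 1, Retn (0.42, SE 0.11, adjusted p = 0.355 from limma), was higher at a nominal p. Their mean log2 level ran from 4.61 to 5.65 in VD(−) and from 4.64 to 4.94 in VD(+), and Lep was low on the scale in both groups, averaging 3.05 ± 0.13 in VD(−) against 3.07 ± 0.23 in VD(+) (SD over 5 arrays). Of 17 tissue macrophage markers 16 were above 0 and 3 (Cd68, Timd4 and Vsig4) were higher at a nominal p. Their mean level ran from 7.69 to 8.25 in VD(−) and from 7.33 to 7.88 in VD(+). Of 9 marrow stroma markers 2 (Cxcl12 and Lepr) were higher, at 5.90 to 6.44 in VD(−) and 5.95 to 6.22 in VD(+), and of 10 endothelial markers 0 passed, at 5.57 to 5.97 in VD(−) and 5.58 to 5.80 in VD(+). Of 9 B cell markers 4 were lower, Fcer2a also after adjustment, and of 8 monocyte markers Ccr2 was higher and Nr4a1 lower. Of 5 erythroid markers 1 was higher, and 0 of 11 neutrophil, 7 T and NK cell and 4 platelet markers passed.

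**Figure D4:**
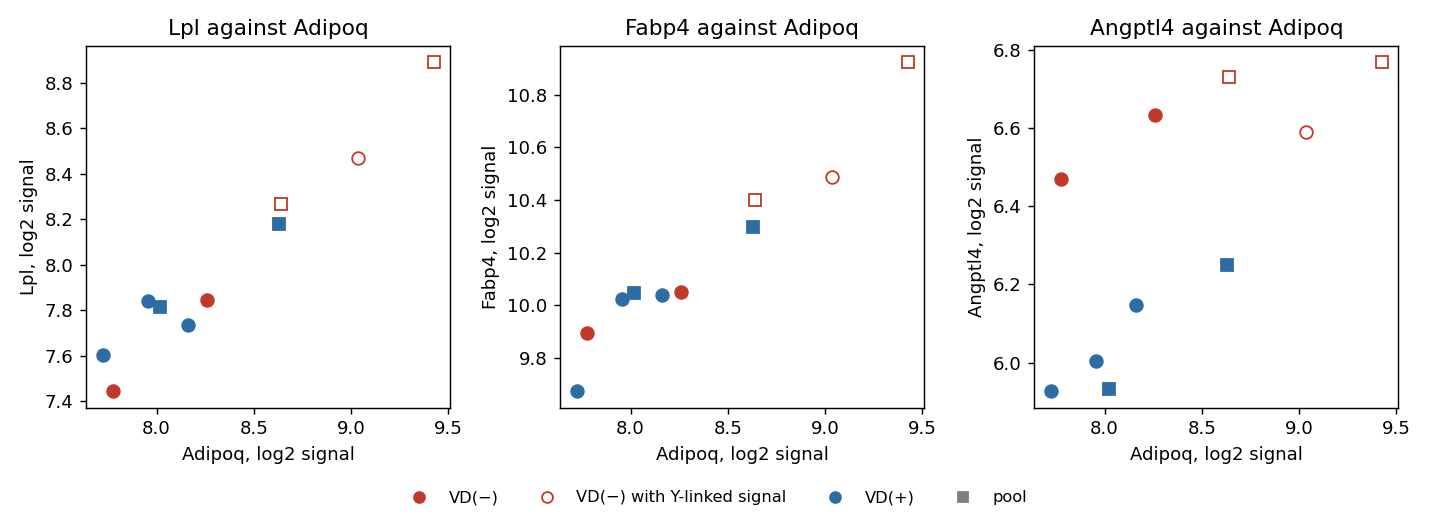
Log2 signal of Lpl, Fabp4 and Angptl4 (vertical axes) against that of Adipoq (horizontal axes) in the 10 arrays, red for VD(−), blue for VD(+), squares for pools and open symbols for VD(−) arrays with Y-linked signal. The arrays of both groups lie along a common line for Lpl and Fabp4. For Angptl4 the VD(−) arrays stand above the VD(+) arrays. Within the groups the deviations of Angptl4 and Adipoq had r of 0.75, and no fit adjusted for Adipoq was made.

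Transcripts of the Y chromosome divided the VD(−) arrays in the same way. The mean log2 signal of Kdm5d, Eif2s3y and Uty was 5.31 or more in VD(−) replicate 1 and both VD(−) pools and at most 2.56 in each of the remaining 7, VD(−) replicates 2 and 3 and the 5 VD(+) arrays. With the Y-linked mean less Xist as a covariate, the log2 difference was −0.16 for Lpl, −0.022 for Fabp4, −0.049 for Pparg, −0.080 for Cd36 and −0.38 for Apoe. It was then 0.53 for Angptl4 (adjusted p = 0.237), 0.71 for Apoc2 (adjusted p = 0.0539) and 0.45 for Fabp5 (adjusted p = 0.641). In the 7 arrays without Y-linked signal, 2 of VD(−) and 5 of VD(+), the log2 difference was 0.50 for Angptl4, 0.70 for Apoc2 and 0.48 for Fabp5, of which that of Fabp5 no longer passed a nominal p under 0.05, and the median of the 10 members was −0.0033. That signal varied only within VD(−), so both sets of values rest largely on VD(−) replicates 2 and 3. No VD(+) array carried Y-linked signal, pools included, although the methods describe donors of mixed sex and the labels give both sexes. The reason was not tested.

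Among other genes of the same pathways few passed a nominal p and 0 passed an adjusted p. At that nominal threshold 3.85% of all probe sets and 6.02% of the bright genes were higher, and 3.23% and 2.78% lower. The small counts below are a description and were not tested against these shares. Of 43 further PPAR targets 2 were higher and 1 lower, with a median of 0.018. Aldh1a2, which makes retinoic acid and is among the genes the study picked on these arrays, had 0.58 (SE 0.19, adjusted p = 0.555 from limma), and Slc27a1, a fatty acid transporter, had 0.22 (SE 0.08). Txnip, which encodes an inhibitor of thioredoxin and glucose uptake, had a log2 difference of −0.38 with an SE of 0.07 (limma, adjusted p = 0.110). Its means were 10.02 ± 0.037 in the 5 VD(−) arrays, against 10.40 ± 0.11 in the 5 VD(+) arrays (SD), with all 5 VD(−) arrays below all 5 VD(+) arrays, as in 0.641% of all probe sets and 0.794% of the bright genes.

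Of 21 genes around lipoprotein lipase and lipoprotein receptors 1 was higher, with a median of −0.013. This was Msr1, the macrophage scavenger receptor for modified lipoproteins. Its mean was 6.83 ± 0.16 in the 5 VD(−) arrays, against 6.23 ± 0.31 in the 5 VD(+) arrays (SD). The log2 difference was 0.60 with an SE of 0.14 (limma, adjusted p = 0.308). All 5 VD(−) arrays lay above all 5 VD(+) arrays, as in 0.911% of all probe sets and 1.87% of the bright genes. Gpihbp1, which anchors the lipase to capillaries, had 0.094 (SE 0.23). Of 22 lipid droplet genes 2 were higher, with a median of 0.058. They were Bscl2, which encodes the droplet assembly protein seipin (0.15, SE 0.06), and G0s2, an inhibitor of the triglyceride lipase (0.26, SE 0.11).

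Of 19 fatty acid binding proteins, transporters and acyl-CoA synthetases 2 were higher, Slc27a1 and the acyl-CoA carrier gene Dbi (0.24, SE 0.11), with a median of 0.023. Of 12 genes of the pyruvate dehydrogenase complex 1 was higher, with a median of 0.077. This was Pdhx, a structural subunit of the complex, at 0.35 (SE 0.08, adjusted p = 0.292 from limma), and the other kinases Pdk1, Pdk2 and Pdk3 had 0.016, −0.20 and 0.068. Of 11 receptors and cofactors 0 were higher and 1 lower, with a median of −0.017. Ncoa2, a coactivator of nuclear receptors, had −0.18 (SE 0.07), and Ppara, the fatty acid receptor of liver, had −0.017 (SE 0.07) low on the scale, with 3.52 ± 0.12 in the 5 VD(−) arrays, against 3.54 ± 0.060 in the 5 VD(+) arrays (SD).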

How the data were processed

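Total RNA was amplified and hybridized to whole-transcript mouse arrays, with 5 arrays for VD(−) HSC recipients and as many for VD(+). The deposited values are log2 signals that the authors made in Partek with RMA, which corrects the background, equalises the distributions of the arrays and summarises each probe set, so differences in total RNA are removed. The study's methods speak of a miRNA array, whereas the probe sets are those of a gene array. For filters and genome build the sources used here give nothing. Medians of single arrays ran from 4.74 to 4.80. Arrays have no read depth, and their number limits the precision. Probe sets were named from the platform annotation, and the symbols of all 10 members are current in the RefSeq table.

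Groups were compared with limma 3.58.1 in R 4.3.3 on all 35556 probe sets, two-sided, and p-values were adjusted across the whole table by the Benjamini-Hochberg method. Differences are VD(−) less VD(+). Single members were also tested by an exact permutation of 5 arrays against 5. The procedure was run on simulated data with independent noise for each gene and array. Such data do not represent genes that vary together or pools that may share mice with single samples. All members are named, as are up to 4 genes of each pathway list with the smallest nominal p or named by the study, some of which are left out. Cidec, Gpihbp1, Ppara, Apoc1, Apoc4, the other pyruvate dehydrogenase kinases and single markers were named outside this rule, after their values were seen. For Angptl4, Fabp5, Apoe and Lpl the 3 genes with the most similar deviations from the group means are given. Members and lists were chosen with earlier results of these data known. Alternatives were the t test of the methods, brighter probe sets (mean above 4.74), cyclic loess, array weights, a trended and robust spread, pool as a covariate, single samples, the Y-linked signal less Xist, a replicate block, averaged probe sets for genes with several, and omission of each array in turn, and, chosen after seeing the data, the pools alone and the arrays without Y-linked signal.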

Additional observations from a re-analysis of the deposited data

How the results depend on the processing

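The differences of Angptl4, Apoc2, Fabp5 and Plin2 were above 0 under each of the 22 alternatives, and Angptl4 and Apoc2 had a nominal p under 0.05 in each. Angptl4 also missed an adjusted p under 0.05 with the methods' t-test (0.104), in the single samples (0.773), in the pools (0.877), with the Y-linked covariate (0.237) and in the arrays without Y-linked signal (0.556). Apoc2 passed an adjusted p in 4 of the 22 and missed it in the single samples (0.799), in the pools (0.923) and with the pool covariate (0.0982), among others. The count of members higher at a nominal p was 3 to 5 when 1 array was left out, with 5 only without VD(−) replicate 2. The sign turned with the Y-linked covariate and in the arrays without Y-linked signal for Lpl (−0.16 and −0.19), Fabp4 (−0.022 and −0.043), Pparg (−0.049 and −0.033) and Cd36 (−0.080 and −0.099), and in those arrays the median of the members was −0.0033. That median was 0.20 to 0.46 when 1 array was left out and 0.13 with the Y-linked covariate. Pdk4 had −0.37 in the single samples and −0.044 to 0.51 when 1 array was left out. Apoe had 0.22 in the pools and −0.11 to 0.19 when 1 array was left out. The cause was not tested. The deviations of same-numbered arrays had r between −0.10 and 0.12. No pairing by replicate number was seen, and so few values cannot exclude one. With the replicate block the difference of Angptl4 was 0.59 with an adjusted p of 0.273, and 3 members passed a nominal p.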
